A study of Mus musculus with 54 samples.

Results

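Mouse embryonic stem (ES) cells lacking a 58 kb stretch of DNA at Haunt, a long noncoding RNA gene (58 kb KO), were treated with retinoic acid (RA), and RNA sequencing of these cells at day 4 was compared with day 2. The comparison takes the 4 libraries named KO-i and KO-j at each day, of 54 samples in the series. The same days of wild-type (WT) cells, 2 libraries each, were used to ask whether the change differed between genotypes. All 8 libraries came from the 129/Ola line 46C, an ES line with a GFP reporter in the neural gene Sox1, so the knockout and the WT cells both carry that reporter. Cells were held for a day in serum-free medium with the cytokine LIF and 2 inhibitors, and then passaged into the same base medium with 2 µM RA and neither LIF nor the inhibitors. The sources do not say whether KO-i and KO-j are separate clones or cultures, nor where the deletion begins and ends. The p-values therefore measure the spread between these libraries, which may be technical in part.

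RA enters the nucleus and binds receptors of the RAR family, which sit on DNA with RXR partners and switch on genes that carry RA response elements. In ES cells this ends self-renewal and turns on HOX genes, the homeobox genes of 4 clusters that set position along the body axis. The HOXA cluster lies beside Haunt, and the comparison shows how HOXA genes and the rest of the transcriptome moved between the 2 days in cells with the 58 kb deletion. RA also induces its own breakdown through CYP26 enzymes, and it induces Stra8, known in the germ line as the gate to meiosis.

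Levels are the authors' deposited FPKM (fragments per kilobase of transcript, scaled to library size). Changes are differences of group means of log2(FPKM + 1), day 4 minus day 2, on which 1 unit is a 2-fold change for a well expressed gene and an understatement for a low one. Calls are at an adjusted p under 0.05 by limma with Benjamini-Hochberg adjustment over the 15705 entries that reached 1 FPKM in 2 or more of 8 libraries. Pairs of values give KO-i and then KO-j. From the spacing of low values, 1 FPKM rests on about 9.05 to 16.4 reads per kilobase, fewest in KO-i at day 2. The leading principal component (61.3% of the variance) separated the days, and on the next one (14.1%) KO-i had the highest score at each day. Genes of chromosome 1 with a mean of at least 5 FPKM had medians higher in KO-i than in KO-j by 0.30 log2 units at day 4 and 0.29 at day 2, while their median change between days was +0.04 in KO-i and -0.02 in KO-j. In bulk RNA a change in the share of cells of a type and a change in RNA per cell cannot be told apart.

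Between the days, 1576 genes rose in 58 kb KO cells (10.0% of those tested) and 1226 fell (7.81%), 2802 in all (17.8%). Of these, 498 rose and 556 fell by at least 1 log2 unit, and 5378 genes had an unadjusted p under 0.05. The median change over the 15705 genes was +0.04. Contractile genes headed the genes that rose by size of change, and Dppa5a, a gene of the pluripotent state, headed those that fell. Leaving out 1 knockout library lowered the count to 1639 (without KO-i at day 2), 980 (KO-j at day 2), 1125 (KO-i at day 4) or 2159 (KO-j at day 4). When each library was centred on its median, 1189 rose and 1571 fell, so the balance of rising to falling genes depends on the scaling. With the 4 knockout libraries fitted alone, with fewer degrees of freedom, 396 genes passed.

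**Figure D1:**
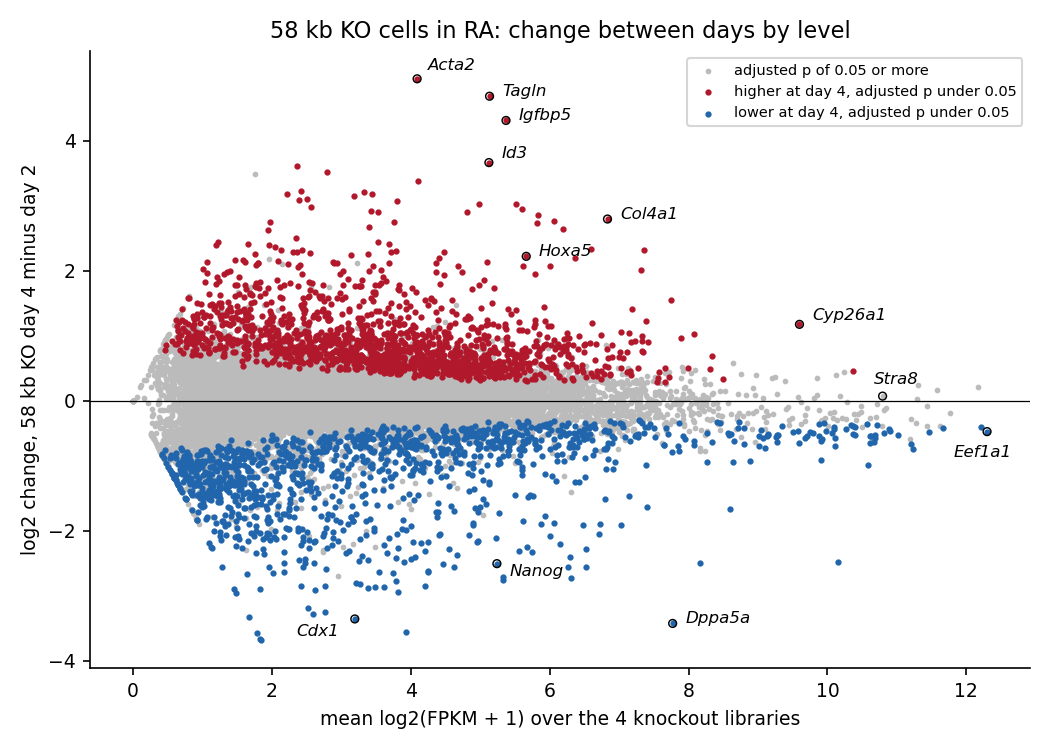
Change between days in 58 kb KO cells (y axis, log2 units, day 4 minus day 2) against the mean level over the 4 knockout libraries (x axis, log2(FPKM + 1)) for the 15705 genes tested. The 1576 genes higher at day 4 are red and the 1226 lower ones blue; Acta2 and Tagln lie highest among the labelled genes at +4.96 and +4.69, and Dppa5a lowest at -3.43.

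The targeted RNA was checked before the rest. Haunt appears under the symbol Gm15055 (ENSMUSG00000085412, mm9 chromosome 6, 52052948 to 52062531). It read 3.08 and 0.447 FPKM in 58 kb KO cells at day 4, against 1.13 and 0 FPKM at day 2. The same RNA stood at 31.8 and 40.6 FPKM in WT at day 4 and 128 and 142 FPKM in WT at day 2. The knockout libraries thus lay below every WT library at both days, and between knockout days the groups overlapped (log2 change +0.74, SE 0.50, adjusted p = 0.339).

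Of the 3 genes taken as markers of this experiment, the HOXA genes Hoxa4 and Hoxa5 rose and Stra8 did not pass. Hoxa4 (NM_008265, mm9 chromosome 6, 52139686 to 52141702) read 55.1 and 48.9 FPKM at day 4, against 11.1 and 11.9 FPKM at day 2. Hoxa5 (NM_010453, mm9 chromosome 6, 52151753 to 52154586) read 99.3 and 118 FPKM at day 4, against 22.7 and 22.2 FPKM at day 2. Both genes encode transcription factors of the neck and upper trunk region, and in each the 2 libraries of a day were close together and far from those of the other day. Their changes were +2.08 (SE 0.16, adjusted p = 0.00161) and +2.22 (SE 0.15, adjusted p = 0.00161), and both kept their call when any knockout library was left out. Stra8 (NM_009292, mm9 chromosome 6, 34870960 to 34889342) was among the abundant messages at both days, with 2315 and 1429.5 FPKM at day 4, against 2376 and 1261 FPKM at day 2. The groups overlapped, KO-i was higher than KO-j at each day, and the change was +0.07 (SE 0.45, adjusted p = 0.928).

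Each of the 4 clusters held at least 1 HOX gene called as rising, in HOXD Hoxd4 alone, and 1 HOX gene fell. Over all genes tested, 10.0% rose and 7.81% fell. In the HOXA cluster, 5 of 9 genes tested rose and 0 fell (median +1.09), and Hoxa11 and Hoxa13 stayed under the filter on low values with at most 0.807 FPKM in any library. Hoxa3 read 39.6 and 49.6 FPKM at day 4, against 20.1 and 20.4 FPKM at day 2 and Hoxa2 8.99 and 10.4 FPKM at day 4, against 3.68 and 2.999 FPKM at day 2. Hoxa6 was low, with 3.85 and 2.85 FPKM at day 4, against 0.454 and 0.751 FPKM at day 2. These 3 genes rose by +1.09, +1.30 and +1.44 (adjusted p = 0.00732, 0.00585 and 0.0161), and the call of Hoxa6 was lost without KO-i at day 2, KO-j at day 2 or KO-i at day 4. Hoxa7 read 2.96 and 3.05 FPKM at day 4, against 1.78 and 2.695 FPKM at day 2 (change +0.32, adjusted p = 0.329), and Hoxa9 and Hoxa10 stayed under 0.5 FPKM in each knockout library. The libraries do not mark strand, and Hoxa4, Hoxa5 and Hoxa6 lie within the listed span of Hoxa3, so reads of overlapping genes and antisense RNAs there cannot be told apart.

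In the HOXB cluster 7 of 10 genes rose and Hoxb1 fell (median +0.87). The largest called rises of the cluster were those of Hoxb5, Hoxb3 and Hoxb9. Hoxb9 read 82.8 and 81.6 FPKM at day 4, against 36.9 and 34.2 FPKM at day 2, a change of +1.19 (SE 0.11, adjusted p = 0.00208). Hoxb5 read 90.04 and 94.4 FPKM at day 4, against 40.05 and 37.5 FPKM at day 2, and Hoxb3 read 21.6 and 19.3 FPKM at day 4, against 7.93 and 8.68 FPKM at day 2, with changes of +1.23 and +1.20. Hoxb2, Hoxb6, Hoxb7 and Hoxb8 rose by 0.57 to 1.00 log2 units. Hoxb1, which marks a single segment of the hindbrain, read 58.5 and 46.9 FPKM at day 4, against 136 and 117 FPKM at day 2 (log2 change -1.25, SE 0.33, adjusted p = 0.0402), and its call was lost when any 1 knockout library was left out. Without KO-j at day 2 the calls of Hoxb5, Hoxb6 and Hoxb8 were lost, leaving 4 rising genes in the cluster, while Hoxb2, Hoxb3, Hoxb7 and Hoxb9 kept theirs in each of the 4 fits.

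The HOXC cluster had 4 of 7 tested genes rising and 0 falling (median +0.75), and the HOXD cluster 1 of 6 (median +0.46). Hoxc8, a thoracic gene, read 25.4 and 31.1 FPKM at day 4, against 5.996 and 4.03 FPKM at day 2, with all day 4 values above all day 2 values by a wide margin (log2 change +2.29, SE 0.18, adjusted p = 0.00161). Hoxc6 read 15.2 and 14.6 FPKM at day 4, against 2.32 and 3.04 FPKM at day 2, and Hoxc9 read 14.3 and 19.8 FPKM at day 4, against 4.18 and 4.32 FPKM at day 2, with changes of +2.12 and +1.76. Hoxd4 read 3.02 and 6.53 FPKM at day 4, against 1.04 and 0.8298 FPKM at day 2 (log2 change +1.51, SE 0.28, adjusted p = 0.0145), a call lost without KO-j at day 2. The 5' genes of these clusters, Hoxc10 to Hoxc13 and Hoxd9 to Hoxd13, stayed at or under 2.74 FPKM in each knockout library, and 0 of them passed. Without KO-j at day 4, Hoxc13 would be called lower (adjusted p = 0.0437).

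**Figure D2:**
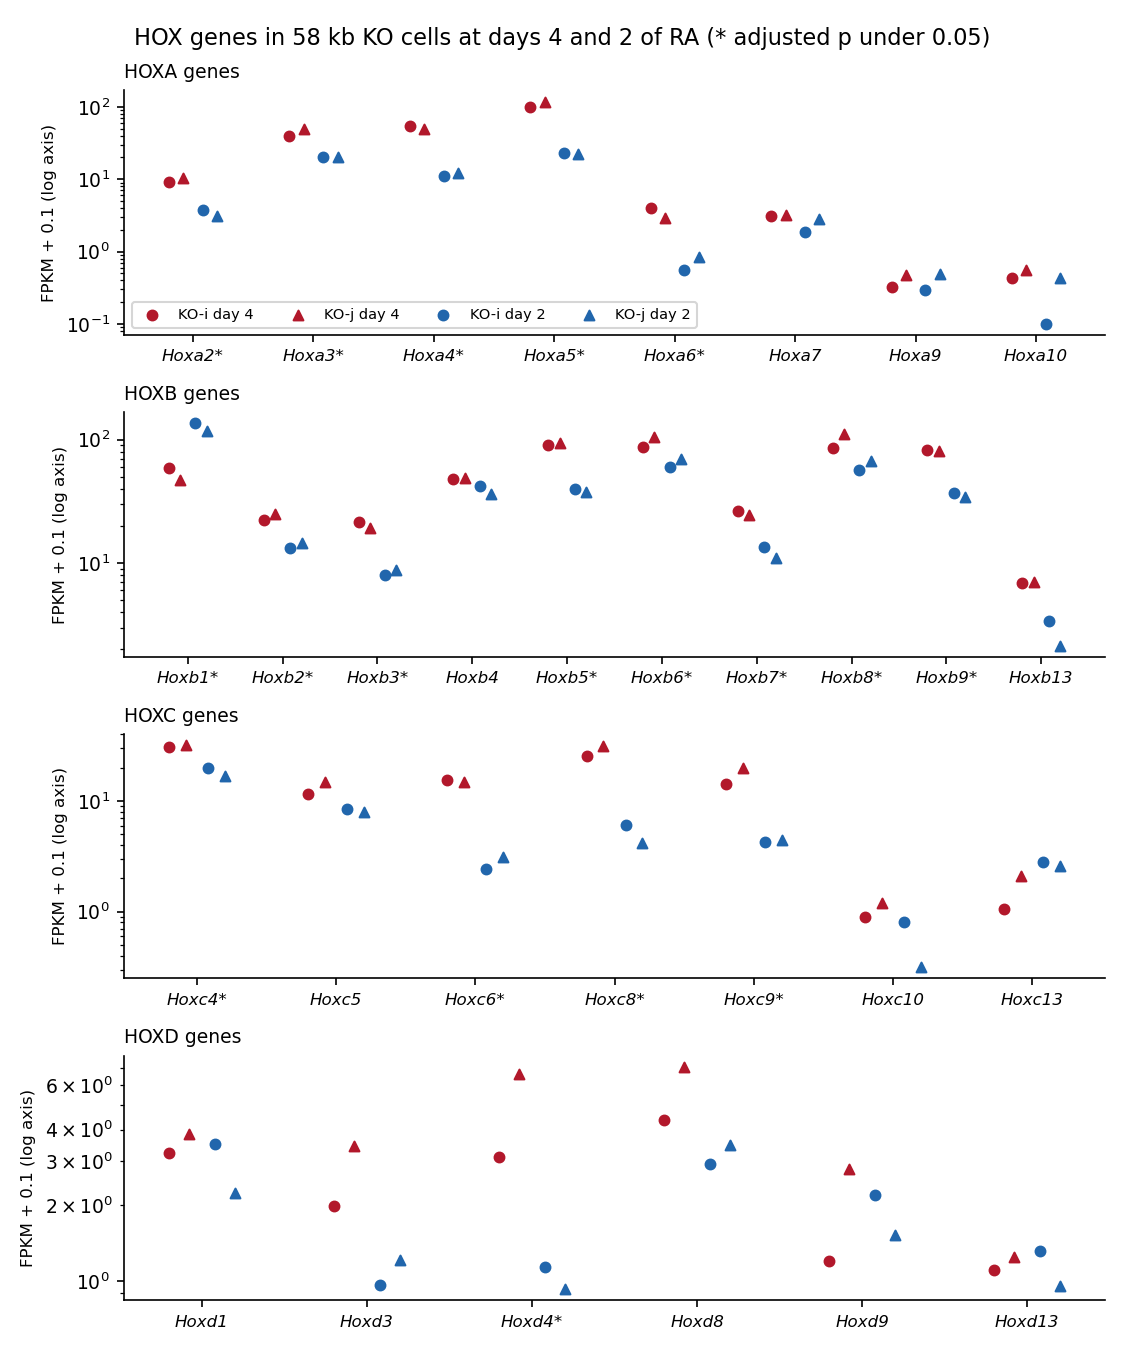
FPKM plus 0.1 (y axis, log scale) of HOX genes in the 4 knockout libraries, with day 4 in red left of day 2 in blue and KO-i as circles and KO-j as triangles; an asterisk marks an adjusted p under 0.05. Hoxa4, Hoxa5, Hoxc6, Hoxc8 and Hoxc9 show wide gaps between the days, and Hoxb1 is the gene with its day 4 values below its day 2 values by a called amount.

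Some genes that act with HOX genes or lie near the HOXA cluster also passed. Among caudal and TALE homeobox genes, 5 of 11 rose and 1 fell (median +0.45), and without KO-j at day 2 3 rose. Meis1 and Meis2 encode cofactors that bind DNA together with HOX proteins. Meis2 read 45.7 and 53.5 FPKM at day 4, against 23.6 and 19.7 FPKM at day 2 and Meis1 read 27.4 and 37.7 FPKM at day 4, against 14.4 and 17.4 FPKM at day 2, and their changes of +1.16 and +0.98 kept their calls with any knockout library left out. Cdx1, a caudal factor that acts upstream of HOX genes, fell to 1.57 and 2.17 FPKM at day 4, against 20.3 and 39.2 FPKM at day 2 (log2 change -3.36, SE 0.28, adjusted p = 0.00186). Cdx2 and Cdx4 stayed under 1 FPKM in each knockout library. In the list of Haunt, HOXA noncoding RNAs and neighbours, 3 of 9 rose, and 1 with any knockout library left out. The antisense RNA 2700086A05Rik, whose span overlaps HOXA genes, read 5.27 and 4.46 FPKM at day 4, against 0.533 and 0.0978 FPKM at day 2 and rose by +2.17, the call of the list that was kept with each library left out. Gm15051, the noncoding RNA Hotairm1 at the 3' end of the cluster, read 162 and 176 FPKM at day 4, against 172 and 195 FPKM at day 2 with overlapping groups (change -0.12, adjusted p = 0.536).

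Genes that make, carry and break down RA rose or did not pass: of 12 tested, 7 rose and 0 fell (median +0.96). Vitamin A is oxidised to RA through Rdh10 and the ALDH1A enzymes, and CYP26 enzymes inactivate RA. Cyp26b1 read 277 and 170.1 FPKM at day 4, against 47.6 and 37.2 FPKM at day 2 (log2 change +2.34, SE 0.22, adjusted p = 0.00215). Cyp26a1, with the highest level of the list, read 1359 and 995 FPKM at day 4, against 618 and 428 FPKM at day 2 (log2 change +1.18, SE 0.29, adjusted p = 0.0332), and its call was lost without KO-j at day 2 or KO-i at day 4. In both enzymes each day 4 value lay above each day 2 value. Dhrs3, which returns retinal to retinol, read 164 and 170.3 FPKM at day 4, against 91.04 and 107 FPKM at day 2 and rose by +0.75. The RA-making enzymes Aldh1a2, Aldh1a1 and Rdh10 were at lower levels and rose too. Aldh1a2 read 9.88 and 12.6 FPKM at day 4, against 5.49 and 1.51 FPKM at day 2, Aldh1a1 1.95 and 2.47 FPKM at day 4, against 0.182 and 0.0669 FPKM at day 2 and Rdh10 9.03 and 6.78 FPKM at day 4, against 3.29 and 1.78 FPKM at day 2, with changes of +1.59, +1.51 and +1.35. Rbp4, the carrier of retinol in blood, rose by +1.84 (adjusted p = 0.0265). In limma the adjusted p was 0.0397 for Aldh1a2 and 0.0132 for Rdh10. The calls of Aldh1a2, Rdh10 and Rbp4 depended on single libraries, and their changes varied in size but stayed positive. Aldh1a1 kept its call with any knockout library left out. With 1 knockout library left out, the change ranged from +0.90 to +2.27 for Aldh1a2 and from +1.04 to +1.67 for Rdh10. For Rbp4 it ranged from +1.20 to +2.48. The intracellular carrier Crabp2 was abundant and overlapped between days, with 399 and 473 FPKM at day 4, against 538 and 458 FPKM at day 2 (change -0.19, adjusted p = 0.51). Without KO-j at day 2 or without KO-i at day 4, 3 genes of the list rose in place of 7.

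Among 9 receptor genes, 3 rose and 1 fell (median +0.26). Rarb, the receptor gene that RA itself induces, read 51.4 and 53.1 FPKM at day 4, against 18.3 and 12.6 FPKM at day 2 (log2 change +1.72, SE 0.18, adjusted p = 0.00268). Rarg read 23.7 and 29.2 FPKM at day 4, against 38.3 and 72.6 FPKM at day 2 and fell by 0.98 log2 units (adjusted p = 0.0485), a call that was lost without KO-j at day 2 or either library of day 4. The orphan receptors Nr2f1 and Nr2f2, COUP transcription factors induced by RA, started low and rose. Nr2f2 read 21.8 and 29.97 FPKM at day 4, against 3.75 and 2.68 FPKM at day 2, and Nr2f1 read 20.97 and 31.9 FPKM at day 4, against 4.68 and 3.32 FPKM at day 2. Their changes were +2.67 and +2.44 (adjusted p = 0.00198 and 0.00393), kept with each library left out, as was that of Rarb. Rara and Rxrb were expressed at both days, with day 4 values above day 2 values, and their changes were +0.25 and +0.26, without passing.

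Cyp26a1 and Rarb are textbook direct targets of the RA receptors, and their promoters are shown for that reason, chosen after their values were seen. The 250 bases before each start were read from RefSeq (GRCm38.p6), with a direct repeat of half-sites spaced by 5 bases in capitals. The half-sites searched, on both strands, were AGGTCA as the consensus and, as variants, AGTTCA, then GGGTCA, and lastly GGTTCA.
Cyp26a1, chr19:37697558-37697807, plus strand: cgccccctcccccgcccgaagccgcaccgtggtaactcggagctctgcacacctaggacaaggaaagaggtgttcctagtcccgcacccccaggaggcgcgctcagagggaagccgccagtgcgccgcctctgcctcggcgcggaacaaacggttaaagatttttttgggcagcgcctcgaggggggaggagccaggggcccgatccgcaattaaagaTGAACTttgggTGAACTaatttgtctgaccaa
Rarb, chr14:16575477-16575726, minus strand: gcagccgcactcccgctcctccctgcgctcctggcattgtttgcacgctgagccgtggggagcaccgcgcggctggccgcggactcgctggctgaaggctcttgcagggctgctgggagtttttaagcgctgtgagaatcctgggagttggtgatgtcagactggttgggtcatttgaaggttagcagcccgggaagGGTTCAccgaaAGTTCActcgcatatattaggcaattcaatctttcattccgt
In Cyp26a1 the repeat lay on the other strand, 32 to 16 bases before the start, with AGTTCA in both half-sites. In Rarb it lay on the gene's own strand, 53 to 37 bases before the start, with GGTTCA and then AGTTCA. Of all 32851 promoters in the table, 29 (0.0883%) held such a repeat in this window. The windows of Stra8 and Hoxa5 held none. Other spacings, other half-sites and sequence outside the window were not searched, so RA response elements of other kinds or places could be missed.

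Of 14 meiosis and germ line genes tested 1 rose and 1 fell (median -0.06), close to the shares over all genes (10.0% rising and 7.81% falling). Rec8, a meiotic cohesin subunit that RA induces together with Stra8, read 376 and 397 FPKM at day 4, against 239 and 148 FPKM at day 2 (log2 change +1.03, SE 0.28, adjusted p = 0.0449). Sycp3, of the synaptonemal complex, fell to 0.809 and 0 FPKM at day 4, against 3.04 and 2.34 FPKM at day 2 (change -1.45, adjusted p = 0.02). Neither call was kept with each library left out: Rec8 lost its call without KO-j at day 2 or either day 4 library, and Sycp3 without either day 2 library. Several germ line genes differed between the 2 names more than between the days. Stag3 read 119 and 24.1 FPKM at day 4, against 44.2 and 17.2 FPKM at day 2, and Taf7l read 31.1 and 4.45 FPKM at day 4, against 29.00 and 8.83 FPKM at day 2. In both genes KO-i was the higher library at each day.

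The 2 largest rises among the genes named by rule were those of Acta2 and Tagln, contractile genes of smooth muscle. Acta2, smooth muscle actin (NM_007392, mm9 chromosome 19, 34314826 to 34329863), read 101 and 87.7 FPKM at day 4, against 4.12 and 0.825 FPKM at day 2 (log2 change +4.96, SE 0.44, adjusted p = 0.00198). Tagln, the actin-binding protein transgelin (NM_011526, mm9 chromosome 9, 45737711 to 45744141), read 170.4 and 184 FPKM at day 4, against 11.2 and 2.92 FPKM at day 2 (log2 change +4.69, SE 0.46, adjusted p = 0.00233). At day 2, KO-i was above KO-j in both genes, and both genes stood far above that range at day 4. Myl9, a myosin light chain, read 58.2 and 50.5 FPKM at day 4, against 6.73 and 2.66 FPKM at day 2, and Cnn1, calponin, read 12.97 and 15.9 FPKM at day 4, against 0.934 and 0.686 FPKM at day 2, with changes of +3.38 and +3.09. The cardiac and skeletal actins Actc1 and Acta1 also rose, to 18.5 and 15.4 FPKM at day 4, against 1.13 and 0 FPKM at day 2 for Actc1 and to 23.6 and 21.4 FPKM at day 4, against 2.27 and 0.288 FPKM at day 2 for Acta1. Their changes were +3.62 and +3.52 (adjusted p = 0.00198 and 0.00311). The 3 actin genes are near-identical in coding sequence, so reads could be divided between them. All 6 kept their calls with each knockout library left out.

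In the list of heart, smooth muscle and kidney mesoderm, 5 of 10 genes rose and 0 fell (median +1.37). Besides Acta2, Tagln and Cnn1 these were Osr1 and Wt1, transcription factors of the intermediate mesoderm and of the lining of the body cavity. Osr1 read 14.3 and 16.7 FPKM at day 4, against 1.35 and 0.304 FPKM at day 2 (log2 change +3.23, SE 0.28, adjusted p = 0.00198), and Wt1 read 14.8 and 13.4 FPKM at day 4, against 2.99 and 3.85 FPKM at day 2 (log2 change +1.78, SE 0.19, adjusted p = 0.00303). Tnnt2, cardiac troponin T, stayed at or under 0.411 FPKM in the knockout, and Nkx2-5 read 1.94 and 2.36 FPKM at day 4, against 2.19 and 2.83 FPKM at day 2 (change -0.15, adjusted p = 0.635).

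Serum response factor binds the CArG box, an element shared by contractile genes, and the 250 bases before the start of 3 genes of the rising group that hold one are shown for that reason, with the box in capitals.
Acta1, chr8:123894776-123895025, minus strand: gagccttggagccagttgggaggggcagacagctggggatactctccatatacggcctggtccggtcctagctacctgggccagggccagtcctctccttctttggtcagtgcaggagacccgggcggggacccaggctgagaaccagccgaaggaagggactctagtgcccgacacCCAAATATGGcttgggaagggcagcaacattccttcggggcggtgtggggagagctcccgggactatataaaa
Actc1, chr2:114052876-114053125, minus strand: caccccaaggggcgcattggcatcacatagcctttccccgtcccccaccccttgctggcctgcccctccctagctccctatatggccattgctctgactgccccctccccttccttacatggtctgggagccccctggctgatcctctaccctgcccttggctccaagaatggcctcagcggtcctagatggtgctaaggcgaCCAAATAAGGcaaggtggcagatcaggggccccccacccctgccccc
Myl9, chr2:156775214-156775463, plus strand: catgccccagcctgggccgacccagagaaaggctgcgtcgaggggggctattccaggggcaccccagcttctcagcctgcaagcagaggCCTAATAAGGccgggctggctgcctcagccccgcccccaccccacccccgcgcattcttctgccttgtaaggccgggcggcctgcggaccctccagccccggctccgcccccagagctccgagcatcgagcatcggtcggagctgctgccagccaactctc
The box ended 64, 38 and 152 bases before the start. Of the 12 genes with the largest rises by the naming rule, 8 had an entry in the RefSeq table (GRCm38.p6) and 4 held a CArG box in this window: Acta1, Actc1, Myl9 and Cyp1a1. In the heart, smooth muscle and kidney mesoderm list 9 of 14 had an entry and 1 held the box, Myl7. Myl7 did not pass (change +0.39, limma adjusted p = 0.411), and Tagln had no entry. Over all promoters the share with the box was 1.47%. The pattern searched was CCWWWWWWGG, with W for A or T and no mismatch allowed. As a pattern it is the same on both strands, though a single match need not be. The search came after the values were seen, and a match is not a measured binding site. The window of Acta2 held no exact match, and boxes with a mismatch were not searched for.

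Genes of the basement membrane and parietal endoderm list rose together: all 11 tested rose (median +1.85), and the 12th, Thbd, stayed under 0.4 FPKM. The list joins genes of the sheet of matrix under epithelia with genes of parietal endoderm, which makes that matrix in quantity. Col4a1 and Col4a2, the chains of type IV collagen, read 273 and 328 FPKM at day 4, against 48.8 and 36.5 FPKM at day 2 for Col4a1 and 165 and 198 FPKM at day 4, against 32.4 and 24.5 FPKM at day 2 for Col4a2. Their changes were +2.80 and +2.64 (SE 0.20 and 0.18, adjusted p = 0.00161 each). Sparc, a collagen-binding matrix protein, read 395 and 337 FPKM at day 4, against 91.7 and 57.2 FPKM at day 2 and rose by +2.32. Lama1, the laminin chain of the early embryo, read 155 and 110.01 FPKM at day 4, against 36.3 and 25.1 FPKM at day 2 and rose by +2.08. The groups of each of these genes were far apart. Without KO-j at day 2, or without KO-i at day 4, 8 of the 11 rose, the calls of Lamc1, Nid1 and Fst being lost. Among collagen chains in general, 10 of 25 rose and 2 fell, Col13a1 and Col9a2. The rising count was 4 without KO-j at day 2, 5 without KO-i at day 4 and 6 without KO-j at day 4, and Col9a2 lost its call without KO-j at day 2 or KO-i at day 4. Col12a1 read 7.805 and 9.35 FPKM at day 4, against 0.772 and 0.351 FPKM at day 2 (log2 change +2.63, SE 0.20, adjusted p = 0.00161).

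Markers of visceral endoderm gave a mixed picture, with 6 of 16 rising and 2 falling (median +0.64). Without KO-j at day 2, 3 rose and 0 fell, and without KO-i at day 4, 3 rose and 1 fell. Gata4, a master factor of primitive endoderm, read 25.5 and 23.7 FPKM at day 4, against 7.02 and 6.73 FPKM at day 2 (log2 change +1.70, SE 0.15, adjusted p = 0.00198). The endocytic receptor Cubn read 13.7 and 15.3 FPKM at day 4, against 4.44 and 1.28 FPKM at day 2, and its adaptor Dab2 read 25.9 and 23.6 FPKM at day 4, against 9.19 and 4.93 FPKM at day 2, with changes of +2.14 and +1.73. Lrp2, the partner of Cubn, fell to 11.1 and 10.1 FPKM at day 4, against 17.7 and 21.5 FPKM at day 2 (change -0.82, adjusted p = 0.0098). The secreted products that define mature visceral endoderm stayed low: Afp and Apoa1 were under 1 FPKM in each knockout library. Ttr rose at a low level, with 1.53 and 1.698 FPKM at day 4, against 0.329 and 0 FPKM at day 2, a call lost without KO-j at day 2 or either day 4 library. Gata6, the partner of Gata4, did not pass, with 14.9 and 20.00 FPKM at day 4, against 7.52 and 14.7 FPKM at day 2 (change +0.66, adjusted p = 0.225).

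Keratins of simple epithelia rose. In the list of trophoblast and simple epithelium 5 of 9 rose and 1 fell (median +1.16). Krt19 read 23.01 and 40.5 FPKM at day 4, against 5.52 and 1.73 FPKM at day 2, Krt8 read 28.5 and 55.8 FPKM at day 4, against 8.61 and 10.3 FPKM at day 2 and Krt18 read 45.3 and 59.6 FPKM at day 4, against 14.9 and 10.3 FPKM at day 2. Their changes were +2.90, +1.98 and +1.98 (adjusted p = 0.00675, 0.00929 and 0.00598). At day 4 KO-j was above KO-i in the 3 keratins. Gata3 read 8.07 and 15.2 FPKM at day 4, against 1.36 and 0.932 FPKM at day 2 (log2 change +2.51, SE 0.32, adjusted p = 0.00518). The trophoblast factor Tfap2c fell to 1.06 and 1.75 FPKM at day 4, against 6.298 and 10.9 FPKM at day 2 (change -1.97, adjusted p = 0.012), and Elf5 and Hand1, which define trophoblast, stayed under 0.5 FPKM in each knockout library. Krt7, Krt8, Krt18, Krt19 and Gata3 kept their calls with each library left out, and Tfap2c lost its call without KO-j at day 2 or KO-i at day 4.

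The naive pluripotency network fell. Of 20 genes tested 12 fell and 0 rose (median -1.58), and Dppa3 stayed under the filter. Dppa5a, an RNA-binding protein abundant in ES cells (NM_025274, mm9 chromosome 9, 78214861 to 78216006), fell to 54.9 and 78.2 FPKM at day 4, against 553 and 925 FPKM at day 2 (log2 change -3.43, SE 0.25, adjusted p = 0.00161). Nanog, a homeobox factor at the centre of the network, fell to 8.02 and 26.8 FPKM at day 4, against 59.1 and 134 FPKM at day 2 (log2 change -2.51, SE 0.55, adjusted p = 0.0227). At each day KO-j was above KO-i for Nanog, and the days did not overlap. Esrrb fell to 3.76 and 9.002 FPKM at day 4, against 21.6 and 60.1 FPKM at day 2, and Zfp42, also called Rex1, fell to 14.1 and 18.2 FPKM at day 4, against 35.1 and 78.7 FPKM at day 2. Dppa2, Utf1, Fbxo15 and Gdf3 fell by 2.52 to 2.84 log2 units. Klf4 was the tested gene of the list with a positive change, with 11.8 and 13.6 FPKM at day 4, against 6.91 and 9.305 FPKM at day 2 (change +0.60, adjusted p = 0.0522). Without KO-i at day 4, 8 genes of the list fell, without KO-j at day 2 9 genes, and without KO-i at day 2 15 genes, and Nanog, Esrrb and Fgf4 were among the calls lost without KO-j at day 2 or KO-i at day 4.

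Of 12 core factors and primed epiblast genes 6 fell and 1 rose (median -0.74). Pou5f1, also called Oct4, fell to 11.4 and 25.2 FPKM at day 4, against 53.6 and 111 FPKM at day 2 (log2 change -2.12, SE 0.41, adjusted p = 0.0156), and Sox2 fell to 11.4 and 25.3 FPKM at day 4, against 43.6 and 69.4 FPKM at day 2 (log2 change -1.64, SE 0.34, adjusted p = 0.0205). Both calls were lost without KO-j at day 2 or KO-i at day 4, after which 2 genes of the list fell, Pou3f1 and Lef1. Pou3f1, also called Oct6, fell to 0.717 and 0.583 FPKM at day 4, against 5.25 and 9.37 FPKM at day 2 (change -2.29). Fgf5, a marker of primed epiblast, rose at a low level, with 1.101 and 1.01 FPKM at day 4, against 0.101 and 0.133 FPKM at day 2, and its call was lost with any 1 knockout library left out.

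Genes of the cleavage-stage programme, which flares up in rare ES cells, fell: 5 of 6 tested, with 0 rising (median -2.12). Zscan4f fell to 15.3 and 26.6 FPKM at day 4, against 139 and 78.6 FPKM at day 2 (log2 change -2.31, SE 0.53, adjusted p = 0.0262), and Tcstv1 fell to 13.8 and 12.1 FPKM at day 4, against 88.4 and 37.00 FPKM at day 2 (log2 change -2.06, SE 0.43, adjusted p = 0.0199). At day 2 KO-i was higher than KO-j in each of the 6. Members of these families are near-identical, so the authors' counting may divide their reads. The count depends on the processing: with no filter on low values 0 of the 6 passed, and with the 4 knockout libraries fitted alone 1 fell. Without KO-i at either day, 0 of the 6 passed, and 3 and 2 fell without KO-j at day 2 and at day 4.

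In the list of FGF and ERK feedback genes, 5 of 7 fell and 0 rose (median -1.27). Etv5 fell to 5.02 and 8.56 FPKM at day 4, against 35.03 and 60.9 FPKM at day 2 (log2 change -2.64, SE 0.30, adjusted p = 0.00346), and its relative Etv4 fell to 1.73 and 3.76 FPKM at day 4, against 14.7 and 40.6 FPKM at day 2 (log2 change -2.83, SE 0.55, adjusted p = 0.0161). Both are transcription factors that FGF signalling keeps on. The ERK phosphatase gene Dusp6 fell to 16.9 and 26.9 FPKM at day 4, against 42.04 and 66.98 FPKM at day 2 (change -1.27, adjusted p = 0.0276). The calls of Etv4 and Dusp6 were lost without KO-j at day 2 or KO-i at day 4, and 2 genes of the list fell without KO-j at day 2 and 1, Etv5, without KO-i at day 4.

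In the Nodal and BMP list 7 of 12 rose and 1 fell (median +1.12), and without KO-i at day 2 3 fell. The ID proteins, which block differentiation factors of the helix-loop-helix class, are targets of BMP signalling. Id2 read 26.2 and 31.3 FPKM at day 4, against 3.34 and 2.53 FPKM at day 2 (log2 change +2.92, SE 0.24, adjusted p = 0.00181), and Id3 read 88.8 and 171 FPKM at day 4, against 17.2 and 4.27 FPKM at day 2 (log2 change +3.67, SE 0.54, adjusted p = 0.00719). Id1 read 35.4 and 50.1 FPKM at day 4, against 9.49 and 8.28 FPKM at day 2 (change +2.13). The ligands Bmp7, Bmp2 and Bmp4 rose by +1.55, +1.28 and +1.04, and the inhibitor Smad6 by +1.19. Bmp7 read 31.6 and 29.8 FPKM at day 4, against 10.8 and 8.87 FPKM at day 2, with no overlap. Nodal, a ligand of the epiblast, fell to 4.802 and 5.51 FPKM at day 4, against 19.7 and 33.4 FPKM at day 2 (log2 change -2.12, SE 0.28, adjusted p = 0.00558), and Foxh1, a mediator of Nodal signals, fell to 1.91 and 4.03 FPKM at day 4, against 23.5 and 31.5 FPKM at day 2 (log2 change -2.88, SE 0.32, adjusted p = 0.00331). The Nodal targets Lefty1 and Lefty2 differed between the names at day 2: Lefty1 read 3.27 and 1.17 FPKM at day 4, against 5.32 and 60.1 FPKM at day 2 (change -2.69, adjusted p = 0.0817). Except that of Bmp4, which was lost without KO-j at day 2, the calls named here held with each knockout library left out.

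**Figure D3:**
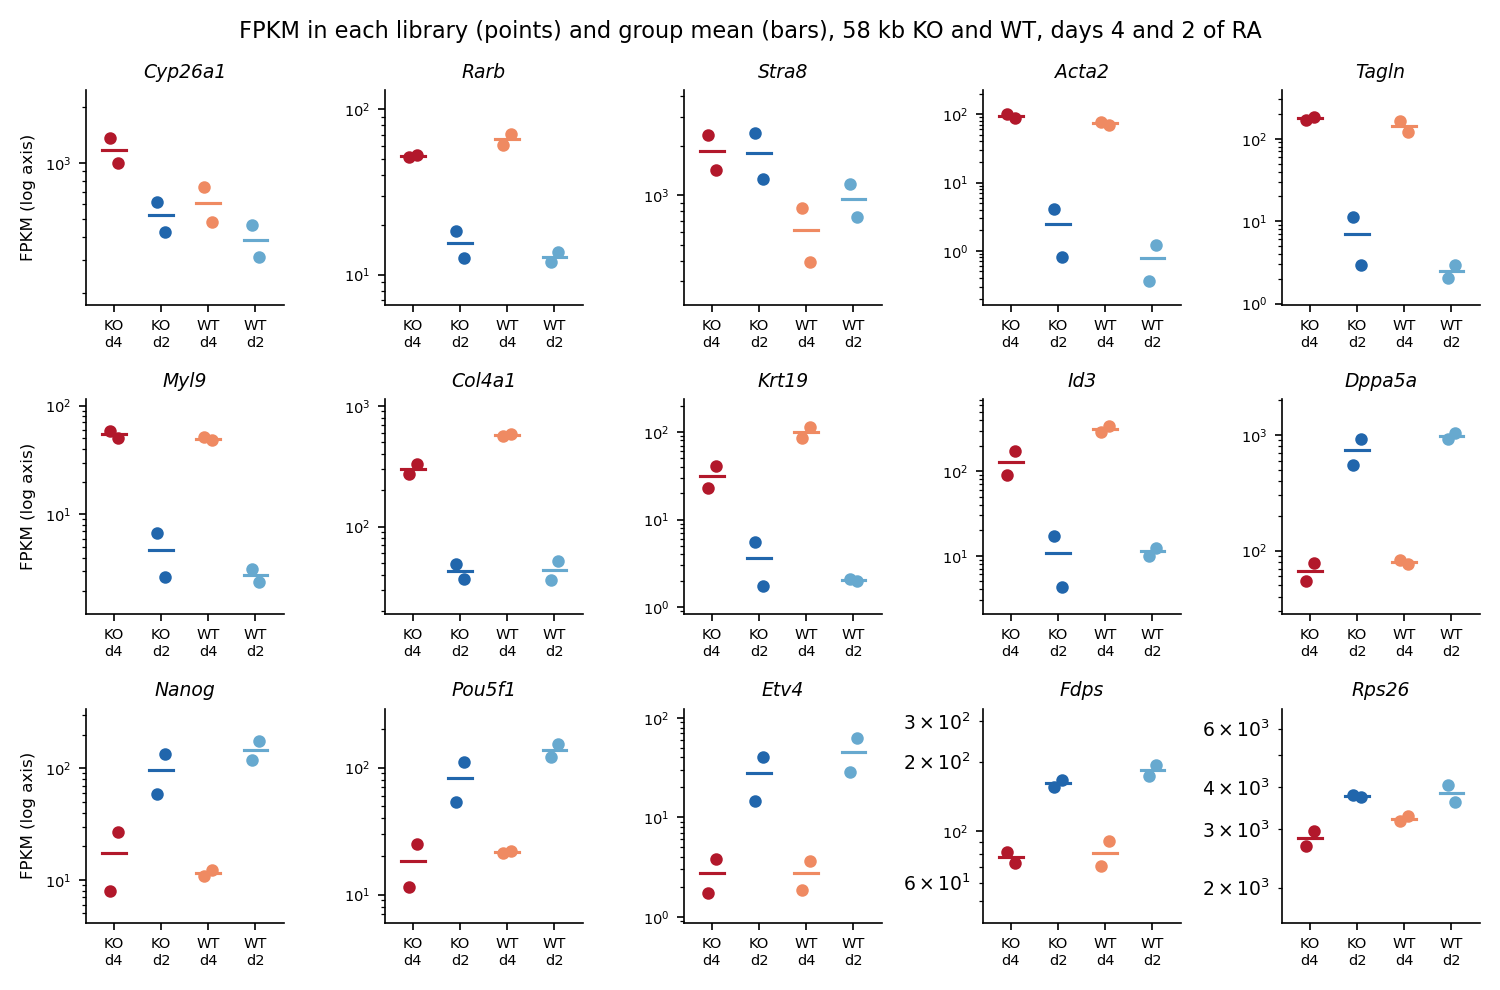
FPKM (y axis, log scale) of 15 genes in each library, as points, with group means as bars, for 58 kb KO day 4 and day 2 and WT day 4 and day 2 from left to right. The 2 day 4 knockout points lie above both day 2 points for Cyp26a1, Rarb, Acta2, Tagln, Myl9, Col4a1, Krt19 and Id3, below them for Dppa5a, Nanog, Pou5f1, Etv4, Fdps and Rps26, and among them for Stra8.

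Neural genes did not move as a group. Among neural progenitor genes 4 of 9 tested rose and 2 fell (median +0.31). Pax6, a factor of neural and eye progenitors, read 29.3 and 29.7 FPKM at day 4, against 16.8 and 14.4 FPKM at day 2 (log2 change +0.88, SE 0.21, adjusted p = 0.0302), and the intermediate filament gene Nes read 12.7 and 13.4 FPKM at day 4, against 5.79 and 3.097 FPKM at day 2 (log2 change +1.41, SE 0.25, adjusted p = 0.0122). Dll1, a Notch ligand, fell to 1.08 and 1.395 FPKM at day 4, against 4.399 and 5.17 FPKM at day 2 (change -1.37). Sox1, which defines the neural plate and carries the reporter in this line, read 1.82 and 2.24 FPKM at day 4, against 2.398 and 3.56 FPKM at day 2 (change -0.38, adjusted p = 0.332), and Hes5 stayed under 1 FPKM. Dll1 kept its call with each library left out, whereas Pax6 lost its call with any of the 4 left out and Nes without KO-i at day 4. Without KO-i at day 4, 1 gene of the list rose, and without KO-j at day 2 or at day 4, 2 genes, and 1 gene fell in each of the 4 fits.

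Of 11 neuronal genes tested 4 fell and 0 rose (median -0.36). Without KO-j at day 2, 1 fell and 1 rose, and without KO-i at day 4, 1 fell and 0 rose. Stmn2 fell to 4.23 and 10.2 FPKM at day 4, against 21.95 and 51.2 FPKM at day 2, Ina to 3.695 and 3.79 FPKM at day 4, against 11.1 and 21.5 FPKM at day 2 and Tubb3 to 1.55 and 3.89 FPKM at day 4, against 7.54 and 16.03 FPKM at day 2. Their changes were -2.18, -1.80 and -1.77 (adjusted p = 0.0186, 0.0082 and 0.0214), and that of Ina was kept with each library left out, while Stmn2 and Tubb3 lost theirs without KO-j at day 2 or KO-i at day 4. Dcx and Snap25, which define young and mature neurons, were under 0.2 FPKM in each knockout library. Of 9 radial glia genes tested 3 rose and 0 fell (median +0.66). Vim read 192 and 289.8 FPKM at day 4, against 75.9 and 103 FPKM at day 2 and Sox9 read 18.3 and 28.3 FPKM at day 4, against 6.995 and 3.32 FPKM at day 2, with changes of +1.41 and +2.02, and both genes are also used by mesenchyme. Fabp7, which defines radial glia, was at or under 0.445 FPKM. Foxa2, a factor of floor plate and endoderm, rose to 8.07 and 12.9 FPKM at day 4, against 3.002 and 2.51 FPKM at day 2 (log2 change +1.58, SE 0.26, adjusted p = 0.01), 1 of 7 tested genes of neural tube patterning, and lost its call without KO-j at day 2.

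Markers of other cell types were read beside these groups. Of the fibroblast and feeder list, 3 of 5 tested rose, Fbn1, Col3a1 and Col1a2, of which Fbn1 kept its call with each library left out. The count was 1 without KO-j at day 2 or at day 4 and 2 without either KO-i library. The summed level of its 8 genes was 41.5 and 28.2 FPKM at day 4, against 14.7 and 12.4 FPKM at day 2, most of it Fbn1. Lum was listed at 0 in each library and Dcn was at or under 0.719 FPKM, so those defining markers were at or near 0. The part of other cell types in the collagen and matrix counts was not tested beyond these values. Of 8 blood and endothelium genes 1 passed the filter, Runx1, and 0 moved; Ptprc and Hbb-bh1 were at or near 0, and the sum was 1.77 and 2.31 FPKM at day 4, against 1.22 and 1.89 FPKM at day 2. In the neural crest list 3 of 6 rose, Ednrb, Twist1 and Ets1, while Sox10 stayed under 1 FPKM in the knockout. Without either day 2 library Ednrb was the 1 gene of the list that rose, and without either day 4 library 2 rose. In the primitive streak list T, Mixl1 and Mesp1 were under 1 FPKM, Eomes and Tbx6 fell, with 0 falling without KO-j at day 2 or KO-i at day 4 and 1 otherwise, and Pdgfra, a receptor of mesoderm and primitive endoderm, rose to 9.45 and 10.3 FPKM at day 4, against 2.25 and 1.898 FPKM at day 2 (log2 change +1.82, SE 0.21, adjusted p = 0.00355).

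**Figure D4:**
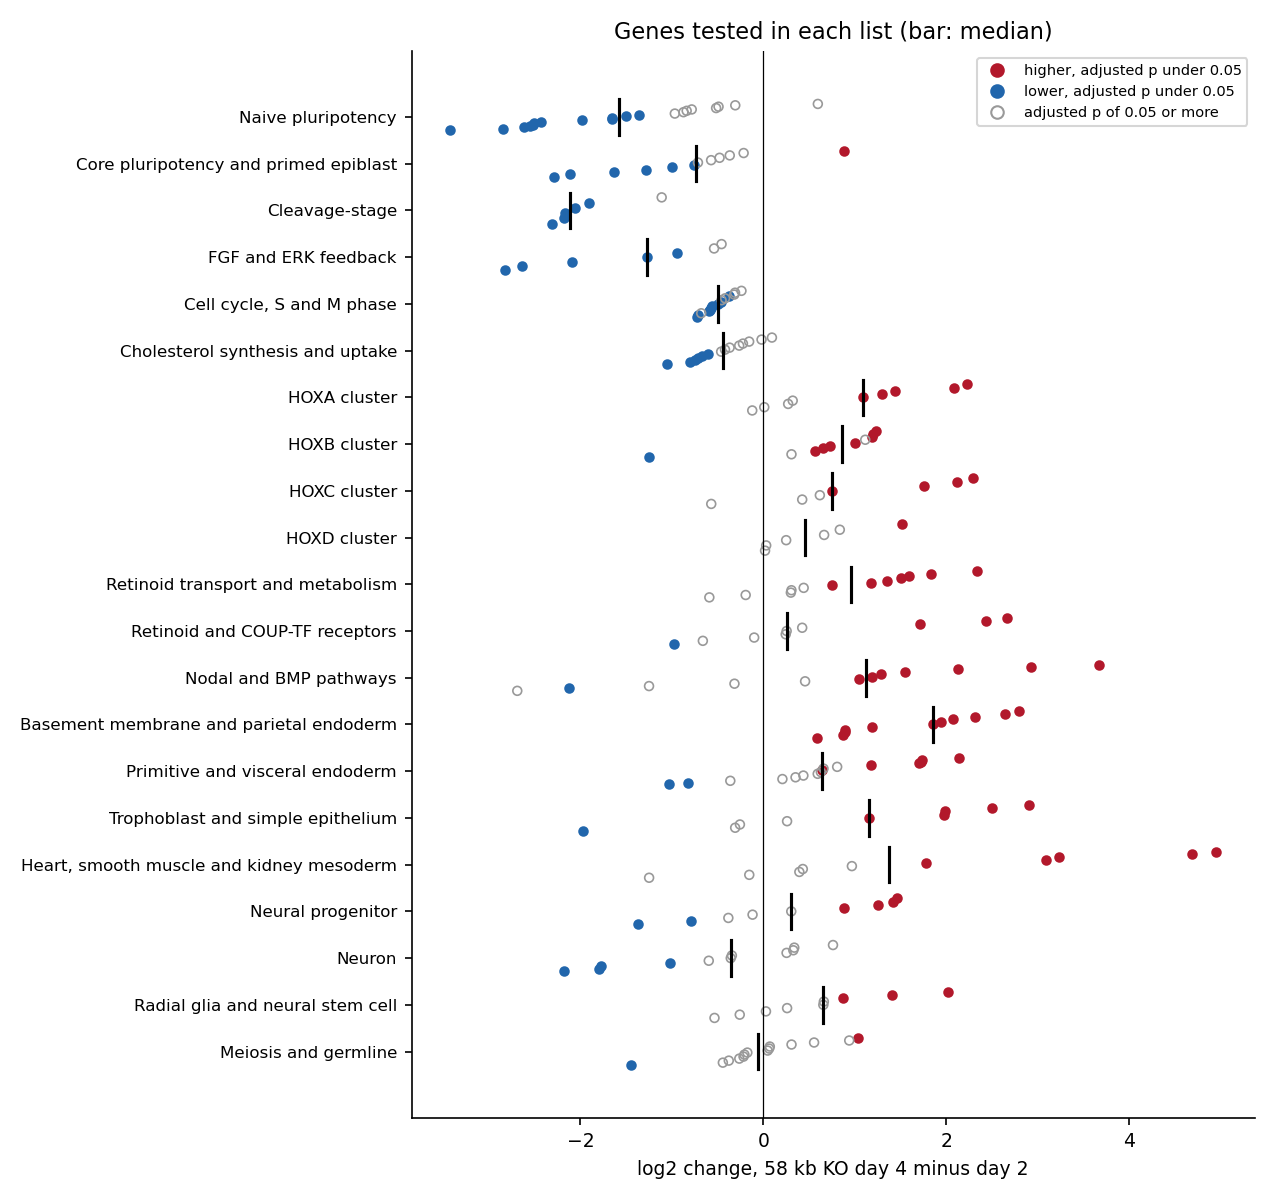
Change between days in 58 kb KO cells (x axis, log2 units, day 4 minus day 2) of each tested gene of 21 lists, with bars at the medians; filled red points rose, filled blue points fell and open points did not pass. Genes of the basement membrane and parietal endoderm list lie right of 0 without exception (median +1.85). The naive pluripotency list lies left of 0 apart from Klf4 (median -1.58).

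Falls among growth genes were small. Of 15 cell cycle genes 9 fell and 0 rose (median -0.50). Top2a, which untangles DNA, fell to 58.1 and 66.1 FPKM at day 4, against 99.00 and 106 FPKM at day 2 (log2 change -0.72, SE 0.10, adjusted p = 0.00681), and Pcna, the replication clamp, fell to 93.1 and 103 FPKM at day 4, against 141 and 153 FPKM at day 2 (log2 change -0.58, SE 0.11, adjusted p = 0.0139). Among 80 genes of cytosolic ribosomal proteins 42 fell and 0 rose (median -0.40). This count depends on the processing: after quantile normalization 5 fell and 2 rose (median -0.12), and with no filter on low values 6 fell. Rps26 read 2670.2 and 2968 FPKM at day 4, against 3807 and 3739 FPKM at day 2, and Rplp1 read 2251 and 2544 FPKM at day 4, against 3204 and 3480.4 FPKM at day 2. With a library left out, 6 (KO-j at day 2), 7 (KO-i at day 2), 9 (KO-i at day 4) or 42 (KO-j at day 4) of these 80 fell. The cell cycle count was 1 without KO-j at day 2, 3 without KO-i at day 4 and 6 or 7 otherwise. Reads of ribosomal protein genes may be shared with processed pseudogenes. Of 14 genes of cholesterol synthesis and uptake 6 fell and 0 rose (median -0.44). Fdps, which makes farnesyl diphosphate, fell to 81.8 and 73.2 FPKM at day 4, against 156 and 167 FPKM at day 2 (log2 change -1.05, SE 0.13, adjusted p = 0.00523), and Mvd fell by 0.80 log2 units. Both kept their calls with each library left out, and 2 to 4 of the list then fell.

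The naming rule also gave genes outside these groups. Among the 12 largest rises, Igfbp5, a binding protein of insulin-like growth factors, read 202 and 167 FPKM at day 4, against 16.7 and 3.87 FPKM at day 2 (log2 change +4.31, SE 0.50, adjusted p = 0.00372). Smoc2, a matrix protein, read 12.7 and 13.4 FPKM at day 4, against 1.01 and 0.186 FPKM at day 2 (log2 change +3.18, SE 0.25, adjusted p = 0.00161). Cyp1a1, the enzyme induced by the aryl hydrocarbon receptor, read 46.2 and 14.6 FPKM at day 4, against 2.98 and 1.34 FPKM at day 2 (log2 change +3.15, SE 0.52, adjusted p = 0.00998), with KO-i above KO-j at each day and the call lost without KO-j at day 2. Pga5, pepsinogen, and Duoxa2, a maturation factor of dual oxidase, rose by +3.22 and +3.11. Among the 12 largest falls, Tcf15, a helix-loop-helix factor of epiblast and somite, fell to 3.63 and 3.41 FPKM at day 4, against 18.3 and 54.9 FPKM at day 2 (log2 change -2.86, SE 0.46, adjusted p = 0.00909). Pipox, a peroxisomal oxidase, fell to 0.557 and 1.31 FPKM at day 4, against 11.6 and 22.8 FPKM at day 2, and Fam25c fell to 3.46 and 4.74 FPKM at day 4, against 24.98 and 57.4 FPKM at day 2. The other falls were Ighv3-3, Gm12794, Gm428 and Lgals6, at -2.91, -2.86, -2.81 and -2.86, and that of Lgals6 was lost without either day 2 library.

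Among abundant genes that rose, H3f3b, a gene of histone H3.3, read 396 and 414 FPKM at day 4, against 323 and 321 FPKM at day 2, and Gnas, the stimulatory G protein subunit, read 376 and 442 FPKM at day 4, against 249 and 257 FPKM at day 2. Bsg, the chaperone of lactate transporters, read 404 and 346 FPKM at day 4, against 275 and 259 FPKM at day 2. The changes were +0.33, +0.68 and +0.49, with no overlap between days. Among abundant genes that fell, Eef1a1, an elongation factor of translation, read 4001 and 4560.2 FPKM at day 4, against 6033 and 5844 FPKM at day 2, and Ppia, a cyclophilin, read 1716 and 2001 FPKM at day 4, against 3143 and 3048 FPKM at day 2. Ppia fell by 0.74 log2 units (adjusted p = 0.00675) and kept its call with each library left out. The call of each of the other 4 was lost without KO-j at day 2, and without KO-i at day 2. Reads of these abundant genes may also be shared with pseudogenes, and 1 further entry of each direction is known in the table by a sequence identifier alone.

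Whether the knockout changed differently from WT was tested as the difference of the 2 changes, knockout minus WT. In WT cells 2260 genes rose (14.4%) and 1713 fell (10.9%). Of the genes that rose in the knockout 1240 also rose in WT, 78.7% of the knockout genes and 54.9% of the WT genes. Of those that fell 919 were shared, 75.0% and 53.6%. In limma 0 genes (0%) passed for the difference, with 873 at an unadjusted p under 0.05 and a lowest adjusted p of 0.170. Across genes, which are not independent replicates, the 2 changes correlated at r = 0.834. With no filter on low values 5 entries passed, without an intensity trend 1, and without KO-j at day 2 1.

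Hoxa5 had the smallest p among the HOX genes for this difference. Its change was +2.22 in the knockout and +0.94 in WT, a difference of +1.29 (limma adjusted p = 0.710). It stood at 133 and 172 FPKM in WT at day 4 and 73.2 and 84.4 FPKM in WT at day 2, so the knockout was the lower genotype at both days and furthest apart at day 2. For Hoxa4 the changes were +2.08 and +1.03 (difference +1.05, limma adjusted p = 0.71), with 40.6 and 34.7 FPKM in WT at day 4 and 20.7 and 15.3 FPKM in WT at day 2. The median difference was +0.65 over the 9 HOXA genes tested, +0.43 over HOXB, -0.00054 over HOXC and -0.19 over HOXD, against -0.01 over all genes, and 0 members passed.

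Of the other 7 symbols with the smallest p-values for this difference, Gm10664, Gm15222, Fam129b, Tcf21 and Raet1e had the higher change in WT. Fam129b read 31.7 and 30.5 FPKM at day 4, against 12.96 and 12.3 FPKM at day 2 in the knockout and 57.4 and 62.8 FPKM in WT at day 4 and 13.7 and 13.2 FPKM in WT at day 2 (difference -0.84, limma adjusted p = 0.71). Gm10664 and Tcf21 changed by +0.46 and +0.09 in the knockout and by +2.28 and +1.96 in WT. Gm15222 and Raet1e had differences of -1.72 and -1.19. Rn45s, a ribosomal RNA precursor, read 48.9 and 55.3 FPKM at day 4, against 65.3 and 82.6 FPKM at day 2 in the knockout and 42.4 and 63.8 FPKM in WT at day 4 and 202 and 211 FPKM in WT at day 2, and Mir144 was listed at 0 in each knockout library. Chosen after their values were seen, Osr1, Krt19, Rbp4 and Apoa1 had differences of -1.80, -2.12, -2.54 and -3.17. Apoa1, a lipoprotein of visceral endoderm, read 0.693 and 0.634 FPKM at day 4, against 0.572 and 0.0788 FPKM at day 2 in the knockout and 8.69 and 23.2 FPKM in WT at day 4 and 0.598 and 0.108 FPKM in WT at day 2. The basement membrane list had a median difference of -0.67 and the list of trophoblast and simple epithelium -0.91, with 0 of 11 and 0 of 9 passing. For Stra8 the changes were +0.07 in the knockout and -0.69 in WT, and its level was 834 and 395 FPKM in WT at day 4 and 1165 and 735 FPKM in WT at day 2 (difference +0.76, limma adjusted p = 0.941).

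**Figure D5:**
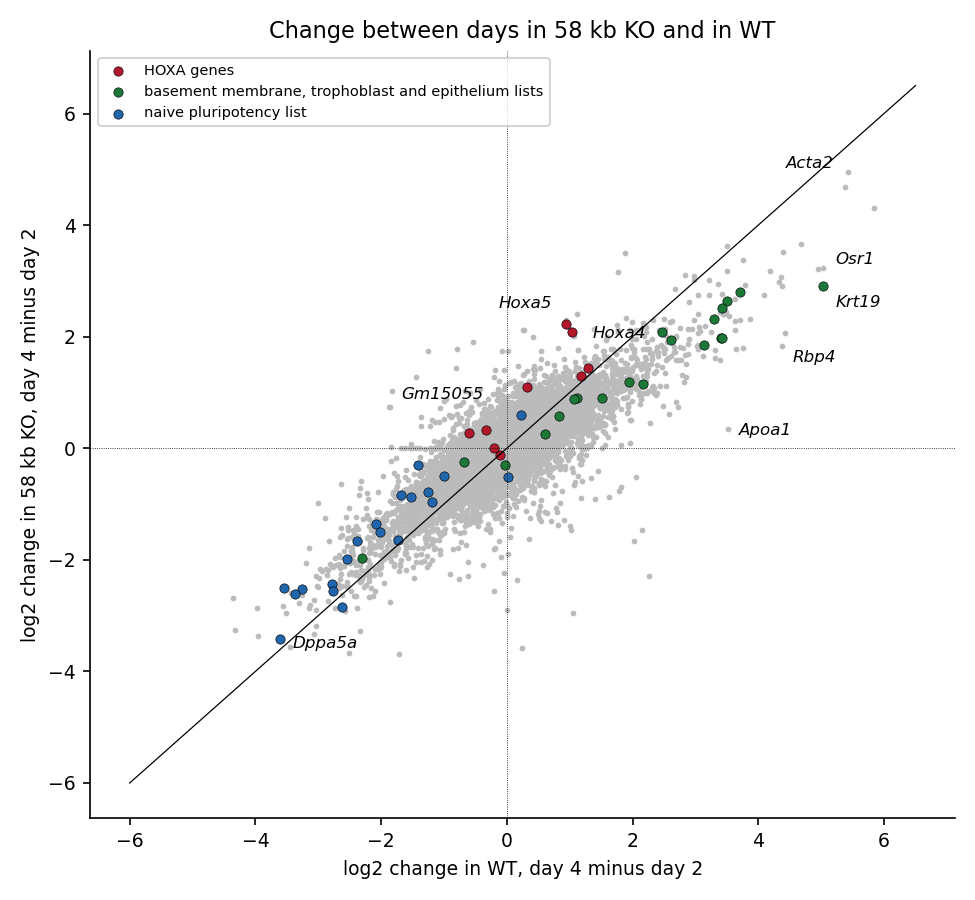
Change between days in 58 kb KO (y axis) against that in WT (x axis), both in log2 units, day 4 minus day 2, for the 15705 genes tested; the line marks equal change. Hoxa4 and Hoxa5 lie above the line at +2.08 and +2.22 in the knockout, and Krt19, Osr1, Rbp4 and Apoa1 lie below it, but 0 genes passed the test of the difference.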

How the data were processed

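Polyadenylated RNA was sequenced in 8 libraries (58 kb KO and WT, days 4 and 2 of RA, 2 each). The submitters' processing notes name CASAVA, TopHat2 2.0.11 and the mouse build mm9; Bowtie 1.0.0 and MACS 1.4.2 are also named, for no stated data type, and the counting program and annotation are not given in the sources used here. The authors deposited 1 table of levels normalised to transcript length and library size, which were read as FPKM from their length-dependent steps, since the header names no unit. Changes were tested with limma 3.58.1 (intensity trend, Benjamini-Hochberg, threshold 0.05) on log2(FPKM + 1), with a filter of at least 1 FPKM in at least 2 of 8 libraries. The 8 libraries were fitted as 4 groups sharing 1 spread (4 residual degrees of freedom), and the contrasts were 58 kb KO day 4 minus day 2 and its difference from the WT change. The scripts were tested on simulated data. A table of LIF withdrawal with 7 columns of per-sample values was not used here.

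Genes were named by rule: Hoxa4, Hoxa5, Stra8 and Haunt; among called symbols at 5 FPKM or more in the higher group and without overlap, the 12 largest changes and the 5 most abundant genes in each direction; up to 5 members of each of 38 lists with the smallest p, plus defining members; and the 8 smallest p-values for the difference from WT. Members and lists were chosen with earlier results of these data known, and other genes were named after their values were seen. Some genes that the rule names are not reported here. The reads behind 1 FPKM, estimated from the spacing of low values, are approximate, and depth does not enter the test. Low genes rest on few reads, and their log2 changes are understated by the pseudocount of 1. Alternatives covered the pseudocount, filter, scaling, trend, replicate block and each library left out.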

Additional observations from a re-analysis of the deposited data

How the results depend on the processing

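Over the alternatives, 0 of the 147 named genes called for 58 kb KO day 4 against day 2 turned direction, and 90 kept their call with each knockout library left out. The 147 were picked as called, and all 2802 called genes changed in the same direction in KO-i and KO-j. A turn of direction was therefore unlikely from the start. The total of 2802 genes became 1596 with no filter on low values and 396 with the 4 knockout libraries alone, by construction a fit with fewer degrees of freedom. Under the other settings of pseudocount, filter, scaling and trend it was 2442 to 2760. Leaving out 1 library gave 980 to 2159 genes; without 1 WT library, an alternative added after seeing the data, it was 1884 to 1942, the lone library being assumed to vary like the other groups. For the difference from WT, 0 genes became 5 with no filter and 1 with no intensity trend, and 0 to 1 with a library left out.

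The replicate block by library name gave 3705 genes (2045 higher, 1660 lower) and 0 for the difference from WT. Deviations from the group means correlated between libraries of a name at 0.260 in the knockout and 0.0849 in WT. The chromosome 1 difference between KO-i and KO-j was also present at both days (0.30 at day 4 and 0.29 at day 2). The sources do not say whether a name links the days, and the main test did not take the names as pairs. The block ended the call of 0 named genes.

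Among named genes without a call, the sign turned as follows. Centred on library medians, Dnmt1 was at -0.069, Hoxa9 -0.065, Hoxd13 -0.044, Hoxd9 -0.056 and Stra8 -0.0043. With pseudocount 0.1, Hoxd9 was at -0.0044, and after quantile normalization Cdx2 was at +0.056 and Crabp2 at +0.14. With 1 library left out, the lowest and highest values were -0.35 and +0.062 for Cdx2, -0.056 and +0.0704 for Dnmt1, -0.013 and +1.48 for Gm15055, -0.095 and +0.12 for Hoxa9, -0.096 and +0.16 for Hoxd13, -0.39 and +0.42 for Hoxd9, -0.19 and +2.07 for Stag3, -0.39 and +0.53 for Stra8, -1.66 and +0.90 for Taf7l and -0.021 and +0.21 for Tcf21. The cause was not tested. Depth limits genes near 1 FPKM, which rest on about 9.05 to 16.4 reads per kilobase.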

Other observations

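Some regulators of DNA methylation and chromatin passed between the days in 58 kb KO cells. The counts below stand beside 10.0% rising and 7.81% falling over all genes tested. Of 6 DNA methylation genes 1 rose and 2 fell. Dnmt3l, the cofactor of de novo methylation, fell to 1.19 and 0.8400 FPKM at day 4, against 7.06 and 11.5 FPKM at day 2 (log2 change -2.32, SE 0.29, adjusted p = 0.00443). Uhrf1, which guides maintenance methylation, fell to 58.2 and 66.8 FPKM at day 4, against 94.9 and 108 FPKM at day 2 (log2 change -0.69, SE 0.11, adjusted p = 0.0078), while the maintenance enzyme Dnmt1 read 102 and 92.98 FPKM at day 4, against 96.8 and 96.6 FPKM at day 2, with overlap. Tet3, which oxidises methylcytosine, rose to 7.53 and 7.57 FPKM at day 4, against 2.97 and 2.69 FPKM at day 2 (log2 change +1.16, SE 0.15, adjusted p = 0.00466). These 3 calls were kept with each knockout library left out. Among 17 Polycomb genes 2 rose and 3 fell (median -0.06), and without KO-j at day 2 1 rose and 1 fell. Ring1, a subunit of complex 1, rose to 18.6 and 15.6 FPKM at day 4, against 8.798 and 8.69 FPKM at day 2 and Mtf2, an accessory subunit of complex 2, fell to 9.96 and 11.4 FPKM at day 4, against 20.1 and 25.8 FPKM at day 2, with changes of +0.89 and -1.03. Both were kept with each library left out, whereas Ezh2, the methyltransferase, fell by 0.63 log2 units and lost its call without KO-j at day 2 or KO-i at day 4.

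Of 12 imprinted genes tested 4 rose and 2 fell (median +0.53, against +0.04 over all genes), and with a knockout library left out 3 or 4 rose and 0 or 1 fell. Peg3, a zinc finger gene expressed from the paternal copy, read 148 and 204 FPKM at day 4, against 30.3 and 20.1 FPKM at day 2 (log2 change +2.76, SE 0.22, adjusted p = 0.00161). Dlk1 read 23.2 and 20.4 FPKM at day 4, against 4.27 and 3.303 FPKM at day 2 (log2 change +2.26, SE 0.18, adjusted p = 0.00161), and Airn, which is transcribed antisense to Igf2r, read 4.01 and 4.57 FPKM at day 4, against 0.803 and 0.6898 FPKM at day 2 (change +1.60). The days were far apart in each of the 3, and their calls were kept with each library left out. Igf2 read 176 and 199.7 FPKM at day 4, against 88.1 and 91.6 FPKM at day 2 (log2 change +1.05, SE 0.21, adjusted p = 0.0185), and its call was lost when any 1 knockout library was left out. The remaining lists were short, so their counts do not set them apart from the 10.0% rising and 7.81% falling over all genes. Passing genes were 0 of 6 Notch genes, 1 rising and 1 falling of 8 Wnt genes and 3 rising of 12 ATF4 and p53 targets. They were also 1 falling of 13 glycolysis genes and 1 rising of 10 D cyclins and kinase inhibitors. Of 7 oncofetal RNA-binding and Hmga genes 1 rose, and of 8 cadherin switch genes 1 rose and 1 fell. With a knockout library left out, 0 or 1 of the ATF4 and p53 targets rose, and 4 glycolysis genes fell without KO-j at day 4. Cdh2, N-cadherin, was the cadherin that rose, to 16.7 and 22.8 FPKM at day 4, against 7.83 and 8.303 FPKM at day 2 (log2 change +1.18, SE 0.16, adjusted p = 0.00577). Wnt5a, a ligand of the non-canonical pathway, rose to 2.47 and 3.35 FPKM at day 4, against 0.961 and 0.485 FPKM at day 2 (log2 change +1.19, SE 0.21, adjusted p = 0.0124), a call lost without KO-j at day 2. Pfkp, a phosphofructokinase, was the glycolysis gene that fell, to 3.76 and 4.34 FPKM at day 4, against 11.8 and 21.2 FPKM at day 2 (log2 change -1.74, SE 0.29, adjusted p = 0.0103), a call lost without KO-i at day 4.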
